A study of Mus musculus with 6 samples.

Results

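Transcripts of 9 complement genes were measured in mouse hippocampus after traumatic brain injury (TBI) or sham surgery. The set holds the 3 subunit genes of the recognition molecule C1q (C1qa, C1qb and C1qc), the central components C4b and C3, the C1 inhibitor gene Serping1, the anaphylatoxin receptors C3ar1 and C5ar1, and Itgam, the α chain of complement receptor CR3. They were chosen by symbol, as complement components, regulators and receptors that brain tissue expresses, and are 9 of 52550 genes listed for each library. All 9 had enough counts to be tested, among 18795 genes in all.

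RNA was taken at 24 h from the hippocampus of male, young adult mice with no stated mutation (strain C57BL / 6 by the labels and C57B6/J by the study's methods), with 3 sham (Sham1 to Sham3) and 3 TBI (TBI1 to TBI3) libraries of 1 mouse each. TBI was a controlled cortical impact, in which a piston strikes the exposed cortex. Every mouse, sham included, was anaesthetised and underwent surgery to the skull, so that the contrast is impact over surgery and no library comes from an unoperated mouse. The impact was on 1 side of the brain, and per the study's methods the hippocampus of the other side was exposed as well. The study's introduction states that the whole hippocampus was examined. Library totals ran from 31630936 (TBI2) to 41771872 (Sham1) estimated counts, and levels are given in CPM, the usual count scaled to a common library size, here after TMM normalization. In bulk tissue, fewer cells of a type and less RNA per cell cannot be told apart.

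Complement is a cascade of proteases and binding proteins. In the classical pathway, C1q binds a target and its partner proteases cut C4 and C2, which form the enzyme that cuts C3. The large fragments stay on the target, where CR3 on phagocytes reads C3 fragments, and the small fragments C3a and C5a act on C3ar1 and C5ar1. The C1 inhibitor, the product of Serping1, blocks the C1 proteases. In brain, microglia are the main source of C1q, reactive astrocytes are known for raised C3 and C4, and C1q and C3 are known to tag synapses that microglia remove through CR3.

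A pair of libraries stood apart from their groups in markers of other cell types, and the fold changes of the 9 members are therefore also given without them. In the library labelled Sham2, the 10 reactive astrocyte markers summed to 5106 CPM, against 731.9 and 740.7 CPM in the other sham libraries and 657.8 to 1803 CPM in the TBI libraries. Of these markers, Gfap, the intermediate filament of astrocytes, had 162684 counts in Sham2 and 19251 to 60328 in the other libraries. Sham2 also held the most RNA of the 6 monocyte markers (63.3 CPM, elsewhere 14.4 to 41.2) and of the 9 neutrophil markers (18.4 CPM, elsewhere 1.58 to 9.92). In TBI1, the 6 markers of striatal neurons summed to 3691 CPM, against 131.3 to 181.2 CPM in the other libraries, and the 8 markers of hippocampal neurons to 460.1 CPM, against 471.6 to 971 CPM. The summed choroid plexus markers stood at 2032, 53.4 and 2079 CPM in sham and at 238.3, 2363 and 254.4 CPM in TBI. In these markers Sham2 was thus far below the rest of its group and TBI2 far above the rest of its own. The library labelled Sham2 thus went against its label in the reactive astrocyte markers, while TBI1 held striatal transcripts beside hippocampal ones at a level near that of TBI3 (471.6 CPM). The labels of both were kept as given, whether they are right was not tested, and each difference between the groups below rests on them.

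No member was called different between TBI and sham. Of the 9 genes, 7 had a higher mean in TBI and 2 a lower one (Serping1 and C5ar1), and the median log2 fold change was 0.37, against 0.0091 over all genes tested. None passed the thresholds for a differentially expressed gene (an unadjusted p below 0.05, an adjusted p below 0.1 and a change of over 1.5-fold either way) in edgeR's quasi-likelihood test, where the adjusted p was 0.982 for 7 members and 0.984 for C3ar1 and C5ar1. The same test called 0.0% of all genes, and DESeq2 called 0 members and 0.219% of all genes. At an unadjusted edgeR p under 0.05, 0 of 9 members and 4.29% of all genes passed. The sham and TBI libraries overlapped in all 9 members, whereas they did not overlap in 10.2% of all genes. The common biological coefficient of variation, which measures the spread between libraries of a group, was 0.374.

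**Figure D1:**
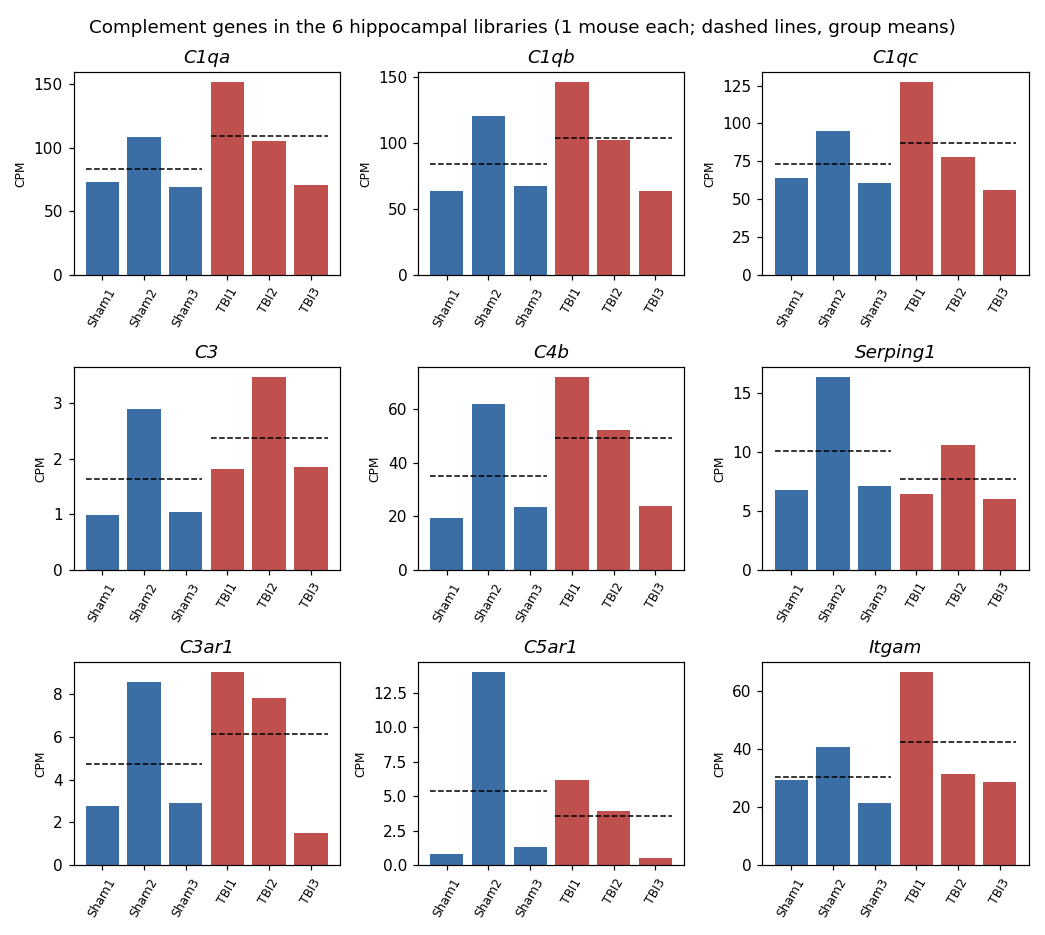
Level of each of the 9 complement genes in CPM (vertical axes, from 0) in every library (bars, sham in blue and TBI in red), with the group means as dashed lines. Sham2 was among the 2 highest libraries in 9 of 9 genes and TBI1 in 7 of 9 (the same share over all genes was not computed), and no gene separated the groups.

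The spread lay between libraries of 1 label rather than between labels. Sham2 was among the 2 highest of the 6 libraries in 9 of 9 members, and TBI1 in 7 of 9. TBI1 was the highest library in 6 members (C1qa, C1qb, C1qc, C4b, C3ar1 and Itgam), Sham2 in 2 (Serping1 and C5ar1) and TBI2 in 1 (C3). Over all genes tested, Sham2 was the highest library in 23.7%, near its 2 of 9 here, and TBI1 in 19.7%, against its 6 of 9. The share of all genes with either among the 2 highest libraries was not computed. TBI3 was close to Sham1 and Sham3 in most members, and was the lowest library of all for C1qb, C1qc, Serping1, C3ar1 and C5ar1.

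Directions depended on the libraries that stood apart. Without Sham2, TBI had the higher mean in 9 of 9 members, and their median log2 fold change was 0.74 against 0.025 over all genes. In that comparison C3 and C4b had an unadjusted edgeR p under 0.05, that is 2 of 9 members against 3.39% of all genes in either direction and 1.91% in theirs. The edgeR adjusted p was 0.997 for each member. Without TBI1, 3 of 9 members were higher (C1qa, C3 and C4b), the median was -0.023, and 0 had an unadjusted edgeR p under 0.05, against 4.33% of all genes. With both left out, 9 of 9 were higher with a median of 0.33, and 1 of 9 (C3) had an unadjusted edgeR p under 0.05, against 5.02% of all genes in either direction and 2.58% among the higher ones. In DESeq2 without both, the unadjusted p was 0.0317 for C3 and 0.0263 for C4b (DESeq2 adjusted p 0.689 and 0.637). In edgeR these comparisons called 0 members and, over all genes, 0.0% without Sham2, 0.00518% without TBI1 and 0.0159% without both. DESeq2 called 0 members in each, and 62, 43 and 95 of all genes. Leaving out both was chosen after their values were seen, and 2 libraries a group then remain.

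**Figure D2:**
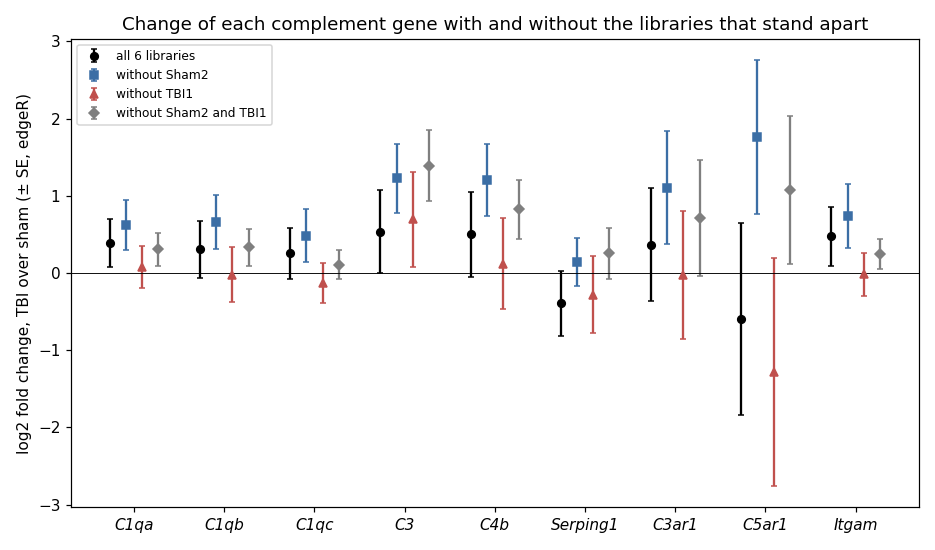
Log2 fold change of TBI over sham with its standard error (edgeR) for the 9 genes, from all 6 libraries (black circles), without Sham2 (blue squares), without TBI1 (red triangles) and without both (grey diamonds). Every member lies above 0 without Sham2, and C5ar1 moves from -0.60 to 1.76.

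C1q is built of chains from C1qa, C1qb and C1qc, which lie side by side on the minus strand of chromosome 4 (GRCm38, GENCODE vM21) at 136895917-136898803, 136880129-136886187 and 136889804-136893065. C1qa stood at 72.9, 108.1 and 69.1 CPM in Sham1 to Sham3 and at 152.0, 105.2 and 70.4 CPM in TBI1 to TBI3. TBI1 was the highest library and the others overlapped between 69.1 and 108.1 CPM. The group levels were 83.4 ± 21.5 CPM for sham and 109.2 ± 41.0 CPM for TBI (mean and SD of n = 3 libraries). TBI exceeded sham by 0.39 on the log2 scale (SE 0.310, edgeR adjusted p = 0.982), which became 0.62 without Sham2, 0.075 without TBI1 and 0.31 without both.

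C1qb stood at 63.9, 120.7 and 67.4 CPM in sham and 146.4, 102.1 and 63.2 CPM in TBI. Again TBI1 and Sham2 led, and TBI3 was the lowest of all. Its log2 fold change was 0.31 (SE 0.368, edgeR adjusted p = 0.982), 0.66 without Sham2, -0.023 without TBI1 and 0.33 without both. C1qc stood at 64.1, 95.0 and 60.6 CPM in sham and 127.6, 78.2 and 56.0 CPM in TBI, in the same pattern. Its log2 fold change was 0.25 (SE 0.328, edgeR adjusted p = 0.982), 0.48 without Sham2, -0.13 without TBI1 and 0.10 without both.

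The 3 subunits varied together across libraries. Their log2 CPM correlated pairwise with r of 0.969 to 0.979 over the 6 libraries, which is a description of libraries that share their tissue makeup. Of all C1q counts, C1qa took 33.4% to 37.1%, C1qb 31.8% to 37.3% and C1qc 27.4% to 31.9% in the 6 libraries. The summed level was 200.8, 323.8 and 197.1 CPM in sham and 426.1, 285.5 and 189.6 CPM in TBI. The shares thus varied by a few percentage points while the sum ranged from 189.6 to 426.1 CPM.

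C1q was also set against its cell of origin. The 13 microglia markers summed to 544.9, 581.1 and 479.2 CPM in sham and to 864.9, 593.6 and 466.2 CPM in TBI, with TBI1 the highest. Of these 13, 11 had a higher mean in TBI and 0 passed an unadjusted p of 0.05 (median log2 fold change 0.30, 0.29 without Sham2, 0.0070 without TBI1 and 0.0040 without both). Without Sham2 and without both, 1 of 13 had an unadjusted edgeR p under 0.05, against 3.39% and 5.02% of all genes, and it was Cx3cr1 in each case (log2 fold changes 1.30 and 1.32). Divided by these markers, C1q stood at 0.369, 0.557 and 0.411 in sham and at 0.493, 0.481 and 0.407 in TBI. The mean ratio was 0.446 ± 0.0989 in sham and 0.460 ± 0.0466 in TBI (SD, n = 3 each), a log2 difference of 0.046. Leaving out 1 library in turn gave -0.074 to 0.24, and the use of Tmem119, P2ry12 and Cx3cr1 alone gave -0.21. C1q and the microglia markers were thus both highest in TBI1, and the ratio was highest in Sham2. The markers themselves went different ways in Sham2, where P2ry12, a receptor of resting microglia, was 0.27 times and Cx3cr1, the fractalkine receptor, 2.63 times the mean of the other sham libraries.

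**Figure D3:**
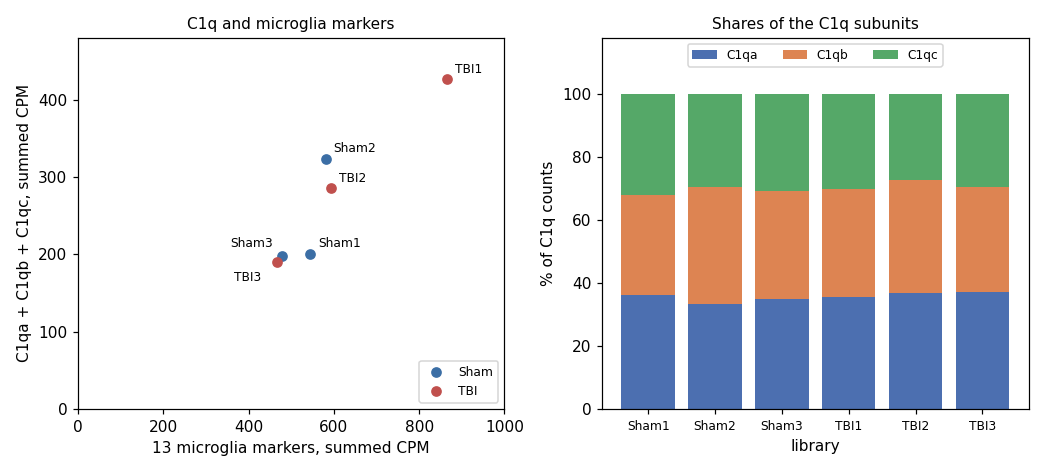
Left, summed CPM of C1qa, C1qb and C1qc (vertical) against summed CPM of 13 microglia markers (horizontal), 1 point a library, sham in blue and TBI in red. Right, the share of each subunit in all C1q counts by library. TBI1 is highest on both axes, Sham2 has more C1q for its microglia markers than any other library, and the shares of the subunits are alike in the 6 libraries.

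Promoter sequences are printed for C1qb, whose gene represents the co-varying C1q cluster, for Itgam, a further microglial and myeloid gene, and for C3, whose order of libraries differed from theirs. They are the 250 bases before the RefSeq start (GRCm38.p6), 5′ to 3′ on the strand of the gene, with motif matches in capitals. C1qb is at chr4:136886201-136886450 on the minus strand, Itgam at chr7:128062390-128062639 on the plus strand and C3 at chr17:57228137-57228386 on the minus strand.
C1qb: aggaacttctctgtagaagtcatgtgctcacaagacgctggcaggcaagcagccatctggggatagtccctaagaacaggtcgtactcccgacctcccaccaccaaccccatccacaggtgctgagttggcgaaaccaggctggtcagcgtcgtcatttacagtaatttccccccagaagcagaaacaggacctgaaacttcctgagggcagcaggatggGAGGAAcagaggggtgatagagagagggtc
Itgam: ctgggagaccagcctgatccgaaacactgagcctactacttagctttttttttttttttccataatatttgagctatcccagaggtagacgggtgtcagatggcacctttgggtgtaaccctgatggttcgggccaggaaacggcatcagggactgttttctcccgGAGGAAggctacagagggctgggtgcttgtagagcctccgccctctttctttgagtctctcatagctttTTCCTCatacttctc
C3: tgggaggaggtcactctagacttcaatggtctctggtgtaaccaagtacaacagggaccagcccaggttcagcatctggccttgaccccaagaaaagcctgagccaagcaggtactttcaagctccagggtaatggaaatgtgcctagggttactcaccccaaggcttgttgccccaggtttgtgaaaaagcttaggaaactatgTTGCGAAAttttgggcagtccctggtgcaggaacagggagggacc

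The capitals mark GAGGAA, the core of sites of PU.1 (a myeloid transcription factor), in C1qb (30 bases before the start) and Itgam (84 before, and 15 before on the other strand), and TTNNGCAA, a form of C/EBP sites, in C3 (45 before, on the other strand). The 6 members with a promoter in the RefSeq table were C1qb, C1qc, C3, C3ar1, C5ar1 and Itgam. C1qc also held GAGGAA on the other strand and an NF-kB match, and the windows of C3ar1 and C5ar1 held none of the 5 motifs searched on both strands. The others searched, TTCNNNGAA (STAT) and the interferon-stimulated response element (ISRE), were in none of the 6 windows. Among all 32851 promoter windows of this length, 23.3% held GAGGAA, 9.56% TTNNGCAA, 7.02% TTCNNNGAA, 2.98% the ISRE and 3.9% the NF-kB motif. These motifs can overlap one another, and such matches are common and describe letters only.

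C4b encodes C4, the component cut by the C1 proteases, and lies on chromosome 17 at 34728380-34743882 (minus strand). It stood at 19.3, 61.8 and 23.6 CPM in sham and at 72.0, 52.2 and 23.8 CPM in TBI. Sham2, TBI1 and TBI2 were high, while TBI3 differed little from Sham1 and Sham3. The means were 34.9 ± 23.4 and 49.3 ± 24.3 CPM (SD, n = 3 each), with a log2 fold change of 0.50 (SE 0.554, edgeR adjusted p = 0.982).

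Without Sham2, which was 2.88 times the mean of the other sham libraries, the log2 fold change of C4b was 1.20 (SE 0.464, edgeR adjusted p = 0.997). Under DESeq2 the adjusted p was then 0.540, and that fit called 0 members and 0.317% of all genes. With TBI1 also left out the edgeR value was 0.82, and without TBI1 alone 0.12. The reactive astrocyte markers also turned on Sham2, since 8 of 10 were lower in TBI over all 6 libraries (median log2 fold change -0.68) and 10 of 10 were higher without Sham2 (median 1.20). Of them, 0 of 10 had an unadjusted edgeR p under 0.05 over all libraries, 4 of 10 without Sham2 and 3 of 9 without both, against 4.29%, 3.39% and 5.02% of all genes. Sham2 stood apart in these same markers, so their counts and medians without it were largely set by leaving it out and are no test. The part of these markers in the level of C4b was not tested.

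C4b has a near copy, C4a, at 34809092-34823464 of the same chromosome, and 22.7% of its 75-base stretches occur in C4a transcripts. Counts of the pair could thus be split by the quantification. C4a had 31, 15 and 0 counts in sham and 86, 42 and 20 in TBI, a log2 difference of 1.80 (SE 1.16, edgeR adjusted p = 0.982), which was 1.79 without Sham2 and 1.30 without TBI1. C4b itself had 782 to 2940 counts.

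C3, the component on which the pathways meet, lies on chromosome 17 at 57203970-57228136 (minus strand) and had the lowest group means of the members per length, although C5ar1 and C3ar1 were lower than C3 on that scale in TBI3. It had 40, 116 and 40 counts in sham and 74, 110 and 66 in TBI, or 0.988, 2.89 and 1.04 CPM against 1.81, 3.48 and 1.85 CPM. All TBI libraries were above Sham1 and Sham3, and TBI2 alone was above Sham2. The log2 fold change was 0.53 (SE 0.542, edgeR adjusted p = 0.982), and it was 0.16 without TBI2.

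C3 had the largest log2 fold change of the 9 members once both libraries were left out. It was 1.23 without Sham2 (SE 0.449, edgeR adjusted p = 0.997), 0.70 without TBI1 and 1.39 without both. Unlike C1q and C4b, C3 in TBI1 did not exceed the other TBI libraries. At 1.81 CPM it was close to TBI3 (1.85) and below TBI2 (3.48), and 0.680 times their mean. Per 1000 counts of microglia markers it stood at 1.81, 4.98 and 2.17 in sham and at 2.10, 5.86 and 3.98 in TBI.

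Serping1, the C1 inhibitor, lies on chromosome 2 at 84765387-84775444 (minus strand). It stood at 6.77, 16.4 and 7.11 CPM in sham and at 6.44, 10.6 and 5.98 CPM in TBI. Sham2 was the highest and TBI2 the next, and the other 4 libraries lay within 5.98 to 7.11 CPM. The log2 fold change was -0.39 (SE 0.423, edgeR adjusted p = 0.982), and it was 0.15 without Sham2 and 0.26 with TBI1 also left out. Serping1 was loosely linked to the other members, with r of 0.117 (Itgam) to 0.763 (C5ar1) over the 6 libraries. C3 was also loosely linked, with r of 0.374 (Itgam) to 0.744 (C4b). In TBI1, Serping1 was at 0.776 times the mean of the other TBI libraries, below TBI2 and above TBI3.

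C3ar1, the receptor of C3a, lies on chromosome 6 at 122847138-122856161 (minus strand). It stood at 2.77, 8.57 and 2.92 CPM in sham and at 9.04, 7.81 and 1.52 CPM in TBI. TBI1, Sham2 and TBI2 formed a high trio, and TBI3 was the lowest of all. Its log2 fold change was 0.37 (SE 0.731, edgeR adjusted p = 0.984), 1.11 without Sham2, -0.030 without TBI1 and 0.71 without both.

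C5ar1, the receptor of C5a on neutrophils, monocytes and other myeloid cells, lies on chromosome 7 at 16246743-16259540 (minus strand) and had the widest spread of the members. It had 32, 562 and 50 counts in sham and 253, 124 and 18 in TBI, or 0.790, 14.0 and 1.30 CPM against 6.20, 3.92 and 0.506 CPM. Sham2 was 13.4 times the mean of the other sham libraries, and TBI1 2.80 times that of the other TBI libraries. The log2 fold change was -0.60 (SE 1.24, edgeR adjusted p = 0.984), 1.76 without Sham2, -1.28 without TBI1 and 1.07 without both.

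Markers of blood-borne myeloid cells moved with C5ar1 in Sham2. The monocyte markers stood at 14.4, 63.3 and 22.8 CPM in sham and 30.8, 41.2 and 20.5 CPM in TBI, and the neutrophil markers at 1.58, 18.4 and 5.60 CPM against 2.65, 9.92 and 3.57 CPM. Of the 9 neutrophil markers, 3 had enough counts to be tested. Per 1000 counts of microglia markers, C5ar1 stood at 1.45, 24.1 and 2.72 in sham and at 7.17, 6.60 and 1.08 in TBI. Their part in the level of C5ar1 was not tested.

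Itgam (CD11b), which pairs with the product of Itgb2 to form CR3, lies on the plus strand of chromosome 7 at 128062640-128118491. It stood at 29.2, 40.6 and 21.5 CPM in sham and at 66.5, 31.4 and 28.7 CPM in TBI. Only TBI1 lay above the range of the sham libraries. The log2 fold change was 0.47 (SE 0.385, edgeR adjusted p = 0.982), 0.74 without Sham2 and -0.016 without TBI1, and 0.25 without both.

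Of the exons of Itgam, 68.7% (3450 bases) are shared with Gm49368, a gene model on the same strand that was listed at 0 in all 6 libraries, so that the counts of Itgam may hold reads of either model. Itgb2, its partner chain, stood at 4.59, 14.5 and 6.28 CPM in sham and 15.0, 6.95 and 7.28 CPM in TBI. Sham2 and TBI1 were thus high in both chains, with Sham2 standing out more in Itgb2. The log2 fold change of Itgb2 was 0.21 (SE 0.512, edgeR adjusted p = 0.985), 0.84 without Sham2, -0.25 without TBI1 and 0.39 without both.

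**Figure D4:**
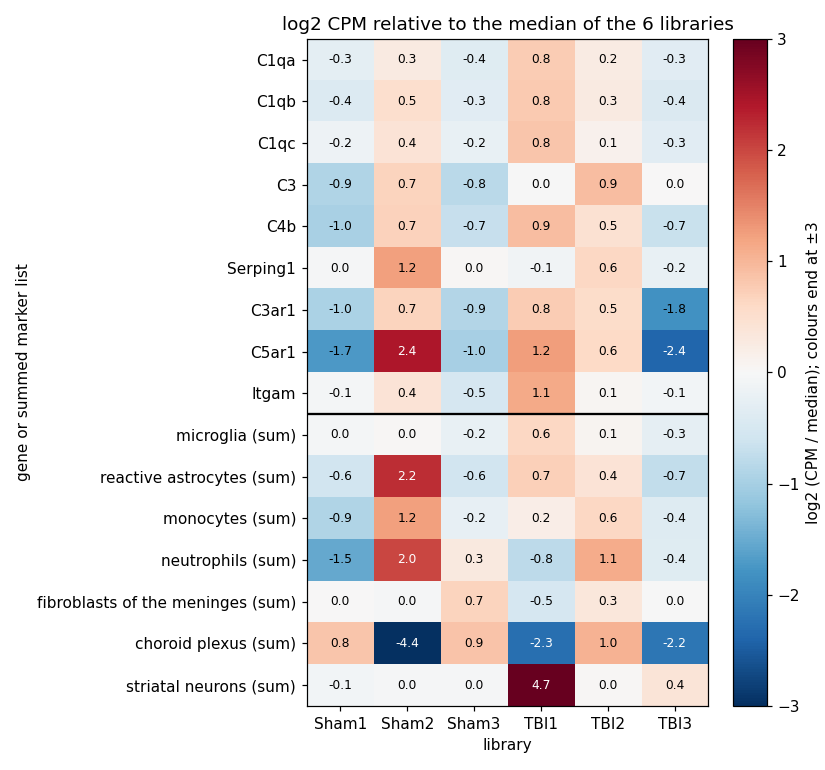
Log2 ratio of each CPM to the median of the 6 libraries (red above, blue below, colours ending at 3) for the 9 complement genes (above the line) and for summed marker lists (below it), by library. The columns of Sham2 and TBI1 are red in most complement genes, Sham2 is also high in reactive astrocyte, monocyte and neutrophil markers, and TBI1 in striatal and microglia markers.

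Among the members, 19 of 36 pairs had r over 0.8 across the 6 libraries, and 0 pairs had r under 0. For each member the 3 tested genes with the most similar log2 CPM were listed, by Pearson r over these 6 libraries. For C1qa they were Dync1h1, Ly86 and Srpk1, for C1qb Ddost, Tmem265 and Igf2bp2, and for C1qc Ptpn6, Col6a1 and Scamp1. Cd68, a lysosomal protein of phagocytes, headed the list of C4b, followed by Ttc4. C3 was closest to Tpd52l2, Dcp1a and Irgm2, and Serping1 to Qsox1, Tbc1d13 and Ccdc51. C3ar1 was closest to Gnb1, Jade3 and Vcam1, C5ar1 to Lilr4b, Bcl3 and Gm7367, and Itgam to Fbxl21, Dctpp1 and Sik3. The lowest of these 27 r values was 0.980, and with 18795 genes and 6 libraries such values are found for genes of many kinds.

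The other genes of the system were described from 7 lists of 52 genes in all, of which 36 were tested. Of these 36, 21 had a higher and 15 a lower mean in TBI, the median log2 fold change was 0.090, and 0 had an unadjusted edgeR p under 0.05 or were called. Without Sham2 the median was 0.072 with 19 of 36 higher, without TBI1 -0.099 with 16 of 36, and without both -0.0073 with 17 of 35. An unadjusted edgeR p under 0.05 was reached by 0 of these genes without Sham2, by 2 without TBI1 and by 2 without both, against 3.39%, 4.33% and 5.02% of all genes, and none was called. In each case the 2 were Cd46 (log2 fold change 0.67 without TBI1 and 0.74 without both) and Csmd1 (-0.61 and -0.57). Listed at 0 in every library were C1rb, Mbl1, Mbl2, Colec10, Cfd, C8a, C9, Cfi and Cpn2, among which Cfd is known as a product of fat and most others of liver.

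Among the C1 proteases, which cut C4 and C2, 3 of 5 were tested (1 higher, 2 lower). C1ra had 1.63 ± 1.22 CPM in sham and 1.54 ± 0.823 CPM in TBI libraries, and C1s1 0.938 ± 0.560 and 0.929 ± 0.622 CPM. C1ra was highest in Sham2 (3.02 CPM, others 0.590 to 2.02), as was its inhibitor Serping1. In the lectin pathway, which starts the cascade from sugars, 4 of 8 genes were tested (3 higher, 1 lower). Its proteases Masp2 (13.2 ± 1.77 and 15.3 ± 4.58 CPM) and Masp1 (6.05 ± 0.882 and 6.70 ± 1.15 CPM) varied less than the members. The collectin gene Colec11 stood at 0.840, 1.35 and 1.02 CPM in sham and 0.441, 0.569 and 0.618 CPM in TBI, with no overlap (log2 fold change -0.97, SE 0.412, edgeR adjusted p = 0.982).

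Of C2, C4a and the alternative pathway, 4 of 5 genes were tested (3 higher, 1 lower). Properdin (Cfp), which steadies the enzyme that cuts C3, had 2.74 ± 0.853 CPM in sham and 3.37 ± 0.379 CPM in TBI, and C2 2.17 ± 1.04 and 2.38 ± 0.551 CPM. Factor B (Cfb) stood at 2.47, 2.52 and 1.95 CPM in sham and at 1.76, 1.80 and 1.83 CPM in TBI (log2 fold change -0.36, SE 0.276, edgeR adjusted p = 0.982). Of the terminal components, which form the membrane pore, 2 of 7 were tested. They were C8g (0.903 ± 0.262 and 1.33 ± 0.600 CPM) and Hc, the gene of C5 (0.636 ± 0.123 and 0.548 ± 0.111 CPM). C5, the source of the ligand of C5ar1, was thus under 1 CPM in each library.

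Of the soluble regulators, 5 of 7 were tested (2 higher, 3 lower). Clusterin (Clu), a chaperone that astrocytes make in abundance and that holds back the pore, had 870.7 ± 81.7 CPM in sham and 777.8 ± 90.7 CPM in TBI. Vitronectin (Vtn), which also holds back the pore, had 45.9 ± 8.88 and 43.5 ± 1.52 CPM. Of the membrane regulators, 13 of 14 were tested (8 higher, 5 lower). Of these, Sez6l2 (221.7 ± 37.1 and 240.3 ± 25.3 CPM), Sez6l (217.0 ± 25.0 and 161.9 ± 70.9 CPM) and Sez6 (130.5 ± 52.1 and 148.8 ± 104 CPM) are neuronal proteins with complement control domains, as is Susd4 (134.0 ± 9.36 and 121.1 ± 3.61 CPM), which was added after its values were seen. Per length their means in sham were 168 for Sez6l2, 114 for Sez6l, 111 for Susd4 and 73.0 for Sez6. Sez6 was highest in TBI1 (268 CPM) and Sez6l lowest there (80.3 CPM), the library with striatal transcripts.

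Of the 6 other receptor genes, 5 were tested (3 higher, 2 lower), with Cd93 (12.9 ± 9.67 and 9.16 ± 2.44 CPM) and Itgb2 the most abundant. Over all these lists, sham and TBI did not overlap in 5 of 36 tested genes, against 10.2% of all genes, and these 5 were picked out after their values were seen. Besides Colec11 and Cfb they were Cd46, a C3b-binding cofactor (4.10, 5.21 and 4.90 CPM in sham, 5.22, 7.40 and 7.64 CPM in TBI), Csmd1, a neuronal inhibitor (47.6, 52.1 and 48.4 against 44.7, 38.3 and 26.6 CPM), and C5ar2, the second C5a receptor (0.691, 0.997 and 0.703 against 0, 0.253 and 0.618 CPM). The edgeR adjusted p of each of the 5 was 0.982.

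Genes tied to the induction of complement genes (cytokines, their signal carriers and myeloid factors) were highest in Sham2 or TBI1 in all 7 that could be tested. Over all genes tested, Sham2 was highest in 23.7% and TBI1 in 19.7%. Of the 7, Socs3 and Spi1 were picked out after their values were seen. Socs3, a target of cytokine signalling, stood at 1.85, 77.2 and 3.02 CPM in sham and at 12.2, 5.85 and 2.28 CPM in TBI. Stat3, which carries that signal, stood at 46.8, 210 and 50.5 CPM against 103, 67.7 and 41.8 CPM. Both were highest in Sham2 and next in TBI1. Spi1, the gene of PU.1, stood at 5.23, 13.9 and 4.69 CPM in sham and 15.5, 7.65 and 4.66 CPM in TBI, highest in TBI1. The 7 were those tested of 11 (3 higher, 4 lower, median log2 fold change -0.14), and all 7 were higher without Sham2 (median 0.55) and 1 of 7 without TBI1 (median -0.43), while Ifng and Ifnb1 were listed at 0 in every library. An unadjusted edgeR p under 0.05 was reached by 0 of 7 over all libraries, 1 without Sham2, 0 without TBI1 and 1 without both, against 4.29%, 3.39%, 4.33% and 5.02% of all genes.

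Levels of different genes were compared per length, as counts over the union of exons, scaled to the same sum in each library. On that scale C1qa (258.2 ± 75.1 in sham, 330.5 ± 120 in TBI) and C1qb (249.5 ± 103 and 300.5 ± 117) led, followed by C1qc (122.2 ± 35.6 and 142.2 ± 58.3). C1qa and C1qb differed by less than their SD, and C1qc was below both. The ratio of C1qc to C1qa in sham was 0.473 by this length and 0.760 by the longest transcript, so that its size rests on the choice of length. Next were C4b (19.9 and 27.2), Itgam (19.5 and 26.5) and Serping1 (14.1 and 10.4), then C5ar1 (6.89 and 4.31) and C3ar1 (3.59 and 4.45), with C3 last (1.04 and 1.46). C4b and Itgam did not differ beyond their spread, nor did C5ar1 and C3ar1. By ratio, the widest step in the order lay between C1q and all other members. Clu, at 813 in sham, was the only one of the 52 other genes above C1qa.

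**Figure D5:**
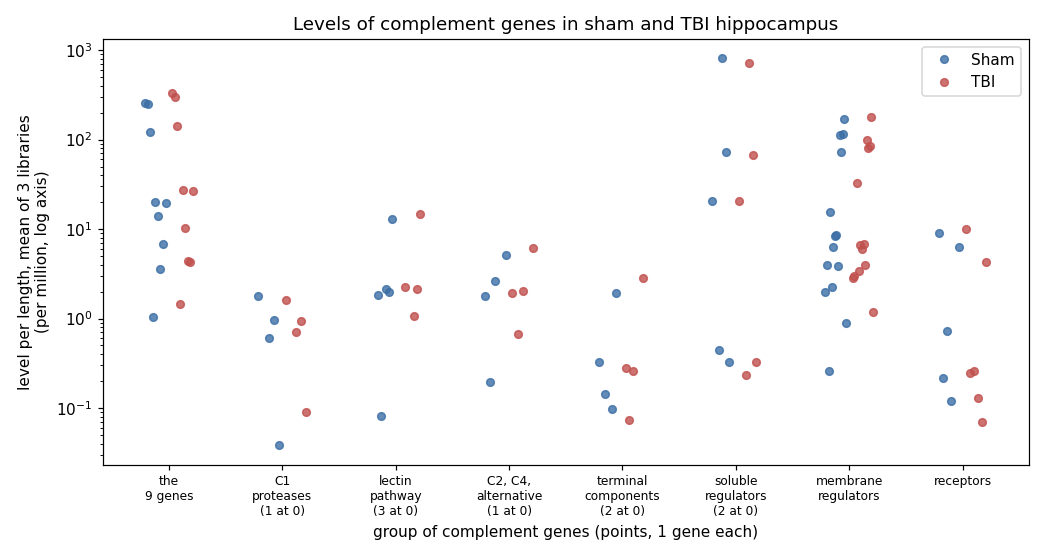
Level per length (mean of 3 libraries, log axis) of the 9 members and of the other complement genes by group, sham in blue and TBI in red, 1 point a gene, with genes at 0 in a group not drawn and the number at 0 in every library given below the group. The C1q subunits lie near the top of the system, C3 near 1, and the terminal components below 3.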

How the data were processed

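Hippocampal RNA of 3 sham and 3 TBI mice was sequenced on an Illumina NovaSeq, and groups were taken from the sample labels. Reads were checked by the authors (FastQC), placed on GRCm38 (HISAT2) and turned into gene values (StringTie). The authors deposited estimated counts, not normalized and written as whole numbers. A value of 4 was found 5109 times and one of 3 only 2325 times, and 8 was found 2563 times against 1155 for 7. The values may thus not be tallies of reads, and no interval of counting error was given. Even so, edgeR and DESeq2 took the values as counts, and their SE and p rest on that. The versions of these tools, the annotation release and the strandedness are not given in the sources used here, and without strand a gene and an antisense partner cannot be told apart. Library totals were 31630936 to 41771872.

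Symbols, coordinates and exon lengths came from GENCODE vM21, where 52403 of 52550 identifiers matched a symbol and 147 did not. R 4.3.3 was used with edgeR 4.0.16 (filterByExpr, TMM, quasi-likelihood test, Benjamini-Hochberg adjustment over 18795 genes) and DESeq2 1.42.0. Genes were called at the thresholds of the study, namely p below 0.05, adjusted p below 0.1 and a change of over 1.5-fold either way. The scripts were tested on simulated data with 200 genes changed 4-fold. With the dispersion (spread between libraries) of these data, edgeR recovered 130 of them with 18 false calls and DESeq2 157 with 106. With 0.1 times that dispersion they recovered 193 and 190, with 13 and 14 false calls. Log2 CPM had a prior count of 2.

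Named genes were the 9 members, their overlapping genes and near copies, at most 3 genes a list by mean CPM, other complement genes with an unadjusted p under 0.05 (there were none in the fit of all 6 libraries) and the 3 genes most like each member. Susd4, Cd46, Csmd1, Colec11, Socs3, Spi1, Tmem119, P2ry12, Cx3cr1 and Fgfr3 were named beside this rule, after their values were seen or, for Tmem119, P2ry12 and Cx3cr1, as the markers of an alternative. Members and lists were chosen with earlier results of these data known. Alternatives were DESeq2 with its defaults or on filtered genes, library totals or upper-quartile scaling, filters of 1 count in any or 10 counts in every library, counts divided by 4, a robust fit, an adjusted p of 0.05, each library left out, the replicate number as a block, the longest transcript as length and 3 microglia markers alone. Chosen after seeing the data were fits without Sham2 and TBI1, and DESeq2 without either or both. Motifs were searched in 250 bases before RefSeq starts (GRCm38.p6) for the 6 members with an entry, which leaves out C1qa, C4b and Serping1. The values of 2 genes that this rule names are not reported here.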

Additional observations from a re-analysis of the deposited data

How the results depend on the processing

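No alternative called a member or another complement gene, in 20 alternatives each. Over all genes, edgeR called 0, and DESeq2 46 with its defaults, 43 on the filtered genes, 62 without Sham2, 43 without TBI1 and 95 without both, while edgeR called 0 to 1 with each library left out and 3 without both; the cause was not tested. With 1 library left out, the log2 fold change ranged from 0.075 to 0.62 for C1qa, -0.023 to 0.66 for C1qb, -0.13 to 0.49 for C1qc, 0.16 to 1.23 for C3, 0.12 to 1.20 for C4b, -0.70 to 0.15 for Serping1, -0.030 to 1.11 for C3ar1, -1.28 to 1.76 for C5ar1 and -0.016 to 0.74 for Itgam. Reversed under DESeq2 were C1qb (-0.037), C1qc (-0.14), C3ar1 (-0.045) and Itgam (-0.030) without TBI1, Serping1 (0.13) and C5ar1 (1.75) without Sham2, and Serping1 (0.24) and C5ar1 (1.06) without both. In edgeR without both, Serping1 was 0.26 and C5ar1 1.07. The C1q to microglia difference moved from 0.046 to -0.21 with 3 markers, and the C1qc to C1qa level from 0.473 to 0.760 by the longest transcript. Between replicates of the same number, deviations from the group mean correlated with r = -0.0996, -0.0650 and 0.153 for numbers 1 to 3. Whether such replicates share more than a number, such as a batch, was not tested. With the replicate number as a block, the log2 fold changes were 0.35 for C1qa, 0.28 for C1qb, 0.20 for C1qc, 0.65 for C3, 0.53 for C4b, -0.32 for Serping1, 0.20 for C3ar1, -0.29 for C5ar1 and 0.41 for Itgam, and 0 genes were called. C5ar1 (18 to 562) and C3 (40 to 116) had the lowest single counts of the members.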

Other observations

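Border macrophages, which line vessels and meninges, summed to 15.2, 30.9 and 21.9 CPM in sham and to 22.4, 30.2 and 22.4 CPM in TBI, with 6 of 7 markers higher in TBI. Markers of resident astrocytes, known as a source of C4 and clusterin, summed to 6308, 3847 and 5546 CPM in sham and to 5528, 5619 and 5632 CPM in TBI, lowest in Sham2. Of these 7 markers 5 were higher in TBI, and 1 (Fgfr3, named for its p) had an unadjusted edgeR p under 0.05, against 4.29% of all genes. That number was 1 without Sham2, 0 without TBI1 and 1 without both, against 3.39%, 4.33% and 5.02% of all genes. Endothelial markers summed to 168.8 to 229.7 CPM in sham and 219.3 to 238.1 CPM in TBI, with 5 of 7 higher. Of these 7, 1 (Ly6c1) had an unadjusted edgeR p under 0.05, against 4.29% of all genes. The count was 0 without Sham2, 2 without TBI1 and 1 without both, against 3.39%, 4.33% and 5.02%. Mural markers summed to 159.3 to 234.4 CPM in sham against 194.5 to 202.4 CPM in TBI, with 3 of 6 higher.

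All 7 markers of meningeal fibroblasts, cells known for C3 and Serping1, had a lower mean in TBI (summed 200.6 to 331.1 CPM in sham, 146.3 to 262.0 CPM in TBI, median log2 fold change -0.15), and none had an unadjusted p under 0.05. Higher in TBI were 2 of 7 without Sham2 and 5 of 7 without TBI1 (median 0.030). Choroid plexus markers were lower in 6 of 7 (median -0.43, -0.96 without Sham2 and -0.064 without TBI1), none with an unadjusted p under 0.05. Their sum was nonetheless highest in TBI2 and lowest in Sham2. Hippocampal neuron markers were lower in 7 of 8 (median -0.91, -0.97 without Sham2 and -0.53 without TBI1), with an unadjusted edgeR p under 0.05 in 0 of 8, in 2 without TBI1 and in 3 without both, against 4.29%, 4.33% and 5.02% of all genes. Red blood cell genes were higher in 5 of 5 (median 0.38, 0.85 without Sham2, 0.81 without TBI1 and 1.23 without both), with sums of 125.9 to 416 CPM in sham and 117.0 to 601.3 CPM in TBI. An unadjusted edgeR p under 0.05 was reached by 0 of 5 over all libraries and by 1 without both, against 4.29% and 5.02% of all genes. Monocyte markers were higher in 3 of 6 (median -0.14, 0.60 of 5 tested without Sham2 and 0.14 without TBI1). Neutrophil markers were higher in 1 of 3 tested (median -0.62, 0.49 without Sham2 and -0.18 of 5 tested without TBI1). Sham2 held the most of both, so their values without it were partly set by leaving it out. Striatal markers were higher in 6 of 6, 4 of them with an unadjusted edgeR p under 0.05 (median 3.74), against 4.29% of all genes, and without TBI1 the median was 0.17 and 0 of 6 had such a p.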
